A study of Mus musculus with 57 samples.

Results

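The Gimap genes encode GTPases of immunity-associated proteins, a family of small GTP-binding proteins found mainly in lymphocytes, and 6 of them, Gimap3, Gimap4, Gimap6, Gimap7, Gimap8 and Gimap9, were followed over the 14 groups of arrays of a mouse leukemia study. They were 6 of the 18165 genes with a probe set of their own, and their 9 probe sets were 6 representative and 3 second ones among 34842 single-gene probe sets. The genes were chosen by name with earlier results of these arrays, their own values included, already known. Their levels and differences are therefore given as a description, with no test, and counts of them past a threshold are read as nothing more than counts.

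RNA was measured on 57 Affymetrix mouse arrays. CA10 mice carried the vav-CALM-AF10 transgene and NHD13 mice the vav-NUP98-HOXD13 transgene, both fusion genes known from human leukemia, and the vav promoter drives expression in blood cells of all kinds. Leukemic spleens came from CA10 mice (6 arrays) and NHD13 mice (6 arrays) killed when signs of leukemia appeared, such as a hunched posture, thinness and an abnormal blood count. All other transgenic tissue came from mice without such signs: CA10 spleen (5 arrays), CA10 thymus (4), NHD13 thymus (3), and whole and lineage-negative marrow of each transgenic line (3 arrays a group). Lineage-negative marrow is marrow depleted of mature blood cells. Wild-type mice gave spleen (2 arrays), thymus (7), whole marrow (6), whole marrow labelled C57B6 (3) and lineage-negative marrow (3). They were matched to the transgenic mice for age, as litter mates where that could be done, ages are not in the labels, and no mouse was treated. A strain is labelled for the C57B6 marrows only, and no spleen of an NHD13 mouse without leukemia was analysed here. Nothing in the labels says that each array was a separate mouse, so errors and p-values cover array-to-array spread, which may be technical.

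Gimap proteins share an AIG1-type GTPase domain, sit mostly on intracellular membranes, and control how long developing and mature lymphocytes survive. Loss of Gimap5 leaves the BB rat with few T cells, and mice without Gimap1 have few mature T and B cells. Their genes lie side by side in 1 cluster, on chromosome 6 in the mouse. In RefSeq (GRCm38.p6) the order along the chromosome was Gimap8, Gimap9, Gimap4, Gimap6, Gimap7, Gimap1, Gimap5 and Gimap3.

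The 250 bases before the annotated start were available from RefSeq (GRCm38.p6) for all 6 genes, in 7 windows, since Gimap8 had 2 starts. Those of Gimap6, Gimap7 and Gimap9 are shown for a contrast in NHD13 leukemic spleen and NHD13 thymus. There Gimap6 and Gimap7 were much lower than in the same wild-type tissue, while Gimap9, in the same cluster, was less so. The Gimap6 window was chr6:48708245-48708494 on the minus strand, that of Gimap7 chr6:48718371-48718620 on the plus strand and that of Gimap9 chr6:48675885-48676134 on the plus strand. Each is printed from 5′ to 3′, and capitals mark the letters of a searched motif on either strand.
Gimap6: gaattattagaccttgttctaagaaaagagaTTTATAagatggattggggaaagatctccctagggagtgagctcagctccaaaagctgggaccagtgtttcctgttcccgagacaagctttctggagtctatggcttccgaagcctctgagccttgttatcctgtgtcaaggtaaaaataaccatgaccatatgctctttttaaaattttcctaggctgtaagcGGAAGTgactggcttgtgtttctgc
Gimap7: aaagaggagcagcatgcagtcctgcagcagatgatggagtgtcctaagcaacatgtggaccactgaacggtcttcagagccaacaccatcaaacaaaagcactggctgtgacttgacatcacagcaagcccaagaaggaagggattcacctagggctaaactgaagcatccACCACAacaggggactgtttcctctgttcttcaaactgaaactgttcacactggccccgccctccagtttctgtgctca
Gimap9: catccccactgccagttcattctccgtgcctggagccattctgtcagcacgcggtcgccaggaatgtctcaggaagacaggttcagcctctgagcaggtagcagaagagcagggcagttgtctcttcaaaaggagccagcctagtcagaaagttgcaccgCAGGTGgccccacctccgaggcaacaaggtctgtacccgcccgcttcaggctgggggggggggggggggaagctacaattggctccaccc
The motifs searched were an ETS-type site (GGAAGT), a RUNX-type site (TGTGGT), a FOXO-type site (TGTTTAC), an E-box (CAGGTG) and a TATA-type site (TATAAA), all on both strands, and none of the matches shown overlapped another. The Gimap6 window held the ETS-type letters and, on the opposite strand, the TATA-type ones, the Gimap7 window the RUNX-type letters, on the opposite strand, and the Gimap9 window the E-box. Among the windows not shown, that of Gimap4 held the RUNX-type and that of Gimap3 the FOXO-type letters. No searched motif was found in the 2 windows of Gimap8. Of 32851 mouse promoter windows of this length, 19.7% held the ETS-type, 14% the RUNX-type, 3.17% the FOXO-type, 17.2% the E-box and 12.4% the TATA-type letters. No motif was shared by all 6 genes, and each match describes letters in a window only.

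All values below are log2 signals as deposited, so a difference of 1 is a change of signal by a factor of 2. Signals of different probe sets are not on a common scale, and genes are compared with each other only by their differences between groups. A gene is called where its adjusted p in limma was below 0.05, over the 15310 genes tested, all 6 Gimap genes included. How precise these values are is set by how few arrays a group holds. Several arrays stood apart from their group. Wild-type thymus 2 had a T cell marker mean of 8.69, against 10.40 to 11.18 on the other wild-type thymus arrays, and a B cell marker mean of 9.27, against 6.42 to 7.38. Its thymic epithelium gene mean was 5.26, against 8.74 to 9.57, and its immature thymocyte gene mean 6.99, against 9.05 to 9.62. The wild-type spleens had thymic epithelium gene means of 5.34 and 5.35. Whether this array holds thymus was not tested, and it was kept as labelled. CA10 thymus 3 had a T cell marker mean of 9.18 and an endothelial marker mean of 8.30. Spleens 1 and 3 of CA10 mice without leukemia had granule gene means of 13.02 and 12.99 and Gimap means of 8.73 and 8.57, against Gimap means of 9.90, 10.49 and 10.63 on the other 3. Their stem and progenitor gene means were 9.27 and 9.48, against 7.71 to 7.84 on the other 3 and 8.46 to 9.64 in CA10 leukemic spleens. NHD13 leukemic spleen 3 had a granule gene mean of 9.13, against 12.59 to 13.39 on the other 5 arrays of its group. A set of 10 arrays, among them all 3 CA10 whole marrows and wild-type whole marrows 4 to 6, had an upper quartile of 6.90 to 7.15, against 7.26 to 7.72 on the other 47. Gapdh, probed near both ends of its transcript, had a 3′ signal above its 5′ signal by a median of 0.17, and by 2.95 on NHD13 lineage-negative marrow 3, 2.09 on CA10 spleen 1 and 1.36 on C57B6 marrow 2.

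In wild-type mice the family was highest in spleen and thymus, and in bulk tissue such as this fewer cells of a type and less RNA per cell cannot be told apart. Averaged over the 6 genes, the signal was 10.30 ± 0.33 in wild-type spleen (SD, n = 2) and 9.60 ± 0.24 in wild-type thymus (n = 7), against 6.98 ± 0.44 in wild-type whole marrow (n = 6). Wild-type lineage-negative marrow stood at 6.58 ± 0.65 (n = 3). All 6 genes were called higher in spleen than in whole marrow and all 6 in thymus than in whole marrow, where 7.64% and 25.6% of all genes tested were called higher. The tissue differences ranged over the 6 genes from 2.27 ± 0.53 (SE, Gimap9) to 4.05 ± 0.55 (Gimap8) for spleen, and from 1.83 ± 0.37 (Gimap3) to 3.31 ± 0.37 (Gimap8) for thymus. These comparisons share the marrow arrays. Between wild-type lineage-negative and whole marrow none of the 6 was called by limma, where 11.3% of all genes were called lower, and 1, Gimap4, had an unadjusted p below 0.05, as did 35.6% of all genes, with a difference of -1.23 ± 0.48. Within the arrays of the higher upper quartile 2 of the 6 were called, and the mean difference was -1.13, against -0.40 over all arrays. The count was 1 without wild-type lineage-negative marrow 3 or without wild-type whole marrow 5. Some signals came close to the lower end of the arrays in marrow. In wild-type whole marrow the lowest were 5.34 for Gimap7 and 5.23 for Gimap9, against 7.38 for Gimap3 and 8.14 for Gimap4. The 40th percentile of an array lay between 4.90 and 5.49 over all 57 arrays.

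**Figure D1:**
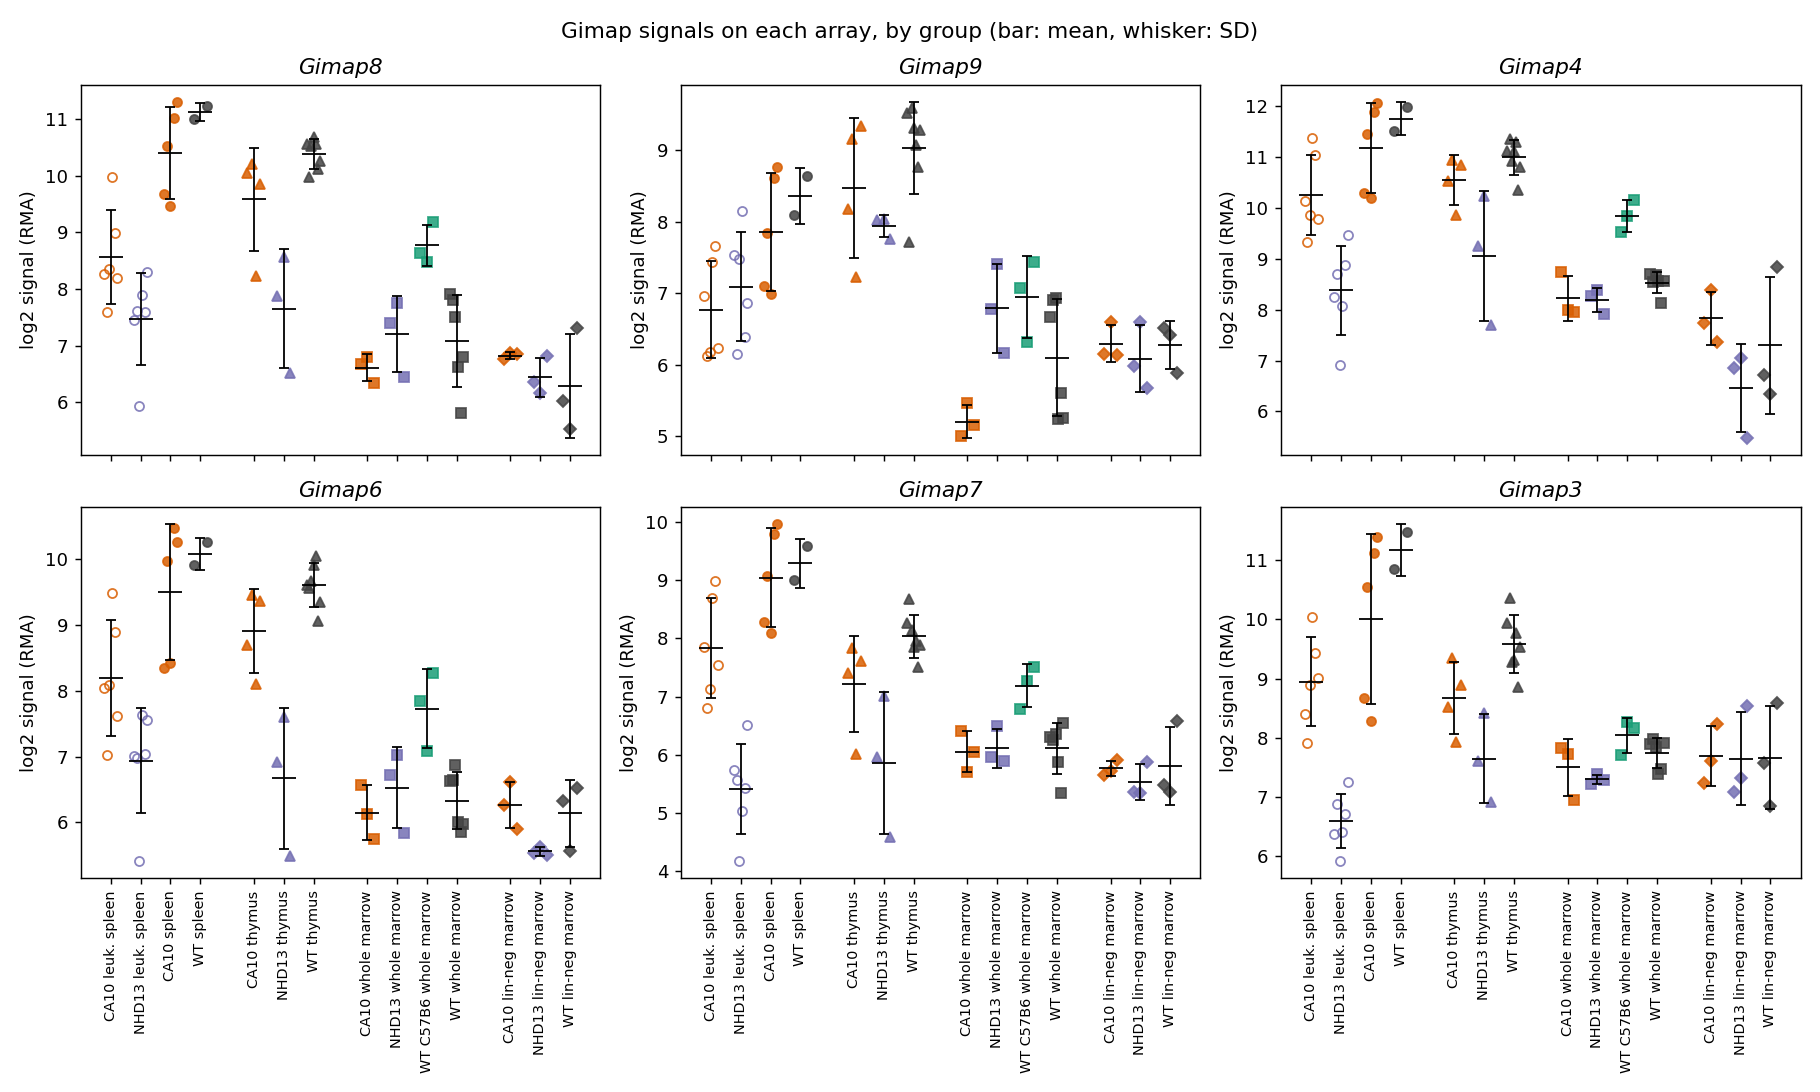
Log2 signal (vertical axis) of the representative probe set of each of the 6 Gimap genes, 1 panel a gene, with 1 point for each array of the 14 groups, a bar at the group mean and a whisker of 1 SD. In 5 of the panels the NHD13 leukemic spleens sit well below the wild-type spleens, while in the Gimap9 panel they overlap them.

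Over all 14 groups the mean of the 6 genes ran from wild-type spleen (10.30) and CA10 spleen without leukemia (9.66 ± 0.96) through wild-type thymus (9.60), CA10 thymus (8.90 ± 0.72), CA10 leukemic spleen (8.43 ± 0.76), C57B6 marrow (8.09 ± 0.32) and NHD13 thymus (7.47 ± 0.92). Below these lay NHD13 whole marrow (7.02 ± 0.41), wild-type whole marrow (6.98), NHD13 leukemic spleen (6.98 ± 0.55), CA10 lineage-negative marrow (6.78 ± 0.17), CA10 whole marrow (6.62 ± 0.25), wild-type lineage-negative marrow (6.58) and NHD13 lineage-negative marrow (6.29 ± 0.08). No group differed from its neighbour in that order by more than the larger of the SDs of the pair. For single genes a few neighbouring groups lay further apart than that. NHD13 leukemic spleen lay below NHD13 whole marrow for Gimap3, and wild-type thymus below wild-type spleen for Gimap6. NHD13 leukemic spleens, with a mean near that of marrow, and wild-type spleens stood toward opposite ends of the order, although both are spleen.

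Whether the family was lower in leukemic spleens was asked against wild-type spleen for both transgenes, and for CA10 also against spleens without leukemia. In NHD13 leukemic spleens all 6 genes lay below the wild-type mean, by a median log2 difference of -3.52 (all genes tested, 0.04), and 5 were called, every one but Gimap9, where 12.3% of all genes tested were called lower. In CA10 leukemic spleens the median difference from wild-type spleens was -1.74 (all genes, 0.03), and only Gimap8 was called, where 2.42% of all genes were called lower. All 6 genes nonetheless had no overlap between CA10 leukemic and wild-type spleens, as was so, toward lower signals, for 11.6% of all genes. In the NHD13 comparison 5 of the 6 did not overlap, against 18.5% of all genes. Both comparisons rest on the same 2 wild-type spleens. Leaving out either of them left 0 of the 6 called in CA10 leukemic spleens, and leaving out CA10 leukemic spleen 4 made it 3, whereas in NHD13 leukemic spleens 5 or 6 stayed past the threshold whichever array was left out. Since the strain of these mice is not labelled, strain and genotype cannot be told apart.

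Gimap3, whose protein has been reported to bind proteins of the Bcl-2 family and to sit at mitochondria, had the largest difference. Its signal in NHD13 leukemic spleens was 5.92 at the lowest, 6.56 at the median and 7.24 at the highest, against 10.86 and 11.48 in wild-type spleens. In CA10 leukemic spleens it was 7.92, 8.95 and 10.03 (lowest, median, highest), and in CA10 spleens without leukemia 8.68, 10.56, 8.29, 11.13 and 11.40. Every leukemic spleen of either line lay below both wild-type spleens, and the highest NHD13 leukemic spleen lay below the lowest CA10 one. The difference from wild-type was -4.58 ± 0.68 in NHD13 leukemic spleens (SE), a signal 23.9-fold lower, and -2.22 ± 0.68 in CA10 leukemic spleens.

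Gimap4 speeds the death of T cells once it has been set off. In NHD13 leukemic spleens its signal was 6.91, 8.47 and 9.47 (lowest, median, highest), against 11.52 and 11.99 in wild-type spleens. CA10 leukemic spleens lay between them with 9.33, 10 and 11.37, and CA10 spleens without leukemia had 10.30, 11.46, 10.19, 11.89 and 12.06. Both leukemic groups lay wholly below the wild-type spleens, but the lowest CA10 leukemic spleen was below the highest NHD13 one. The difference from wild-type was -3.38 ± 0.62 in NHD13 and -1.50 ± 0.62 in CA10 leukemic spleens.

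Gimap6 binds the autophagy protein GABARAPL2, and mice without it have fewer T cells. Its signals in NHD13 leukemic spleens were 5.42, 7.02 and 7.64 (lowest, median, highest) and in CA10 leukemic spleens 7.02, 8.06 and 9.49, against 9.91 and 10.25 in wild-type spleens. The difference from wild-type was -3.14 ± 0.66 in NHD13 and -1.89 ± 0.66 in CA10 leukemic spleens. No leukemic spleen reached the lower wild-type spleen. Among CA10 spleens without leukemia the values split, with 8.34 and 8.43 on arrays 1 and 3 and 9.97, 10.47 and 10.27 on the others.

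Gimap7, whose human protein speeds GTP hydrolysis by its relative GIMAP2, had the next largest difference in NHD13 leukemia. Its signals were 4.18, 5.50 and 6.52 in NHD13 leukemic spleens (lowest, median, highest) and 6.80, 7.69 and 8.99 in CA10 leukemic spleens, against 8.99 and 9.57 in wild-type spleens. The leukemic groups did not overlap each other, and the highest CA10 leukemic spleen lay just under the lower wild-type one. The NHD13 difference from wild-type was -3.87 ± 0.61, a signal 14.6-fold lower, and that of CA10 was -1.45 ± 0.61. The Gimap7 signal lay above the 40th percentile of the array on 5 of 6 NHD13 leukemic spleens, with a mean of 5.41. Close to the low end of the arrays, the size of the NHD13 difference is uncertain.

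Gimap8 is the largest family member, with several GTPase domains and a role in mouse B cell survival. Alone of the 6, though like Gimap5 outside them, it was called in every leukemic comparison with a non-leukemic spleen group. NHD13 leukemic spleens had 5.94, 7.61 and 8.30 and CA10 leukemic spleens 7.59, 8.31 and 9.98 (lowest, median, highest), against 11.01 and 11.24 in wild-type spleens. Each leukemic spleen was at least 1 log2 unit below both wild-type spleens. CA10 spleens without leukemia, at 9.68, 10.53, 9.46, 11.02 and 11.31, overlapped only the highest CA10 leukemic spleen. The differences from wild-type were -3.65 ± 0.60 in NHD13 (12.6-fold lower) and -2.56 ± 0.60 in CA10 leukemic spleens.

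Gimap9 stood apart from the other 5. Its signals were 6.15, 7.17 and 8.15 in NHD13 leukemic spleens and 6.12, 6.60 and 7.66 in CA10 leukemic spleens (lowest, median, highest), against 8.09 and 8.64 in wild-type spleens. It alone of the 6 was not lower in NHD13 than in CA10 leukemic spleens on average, and the highest NHD13 leukemic spleen lay between the wild-type ones. Its difference from wild-type was -1.27 ± 0.56 in NHD13 leukemic spleens, 2.41-fold lower and not called, and -1.60 ± 0.56 in CA10 leukemic spleens.

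**Figure D2:**
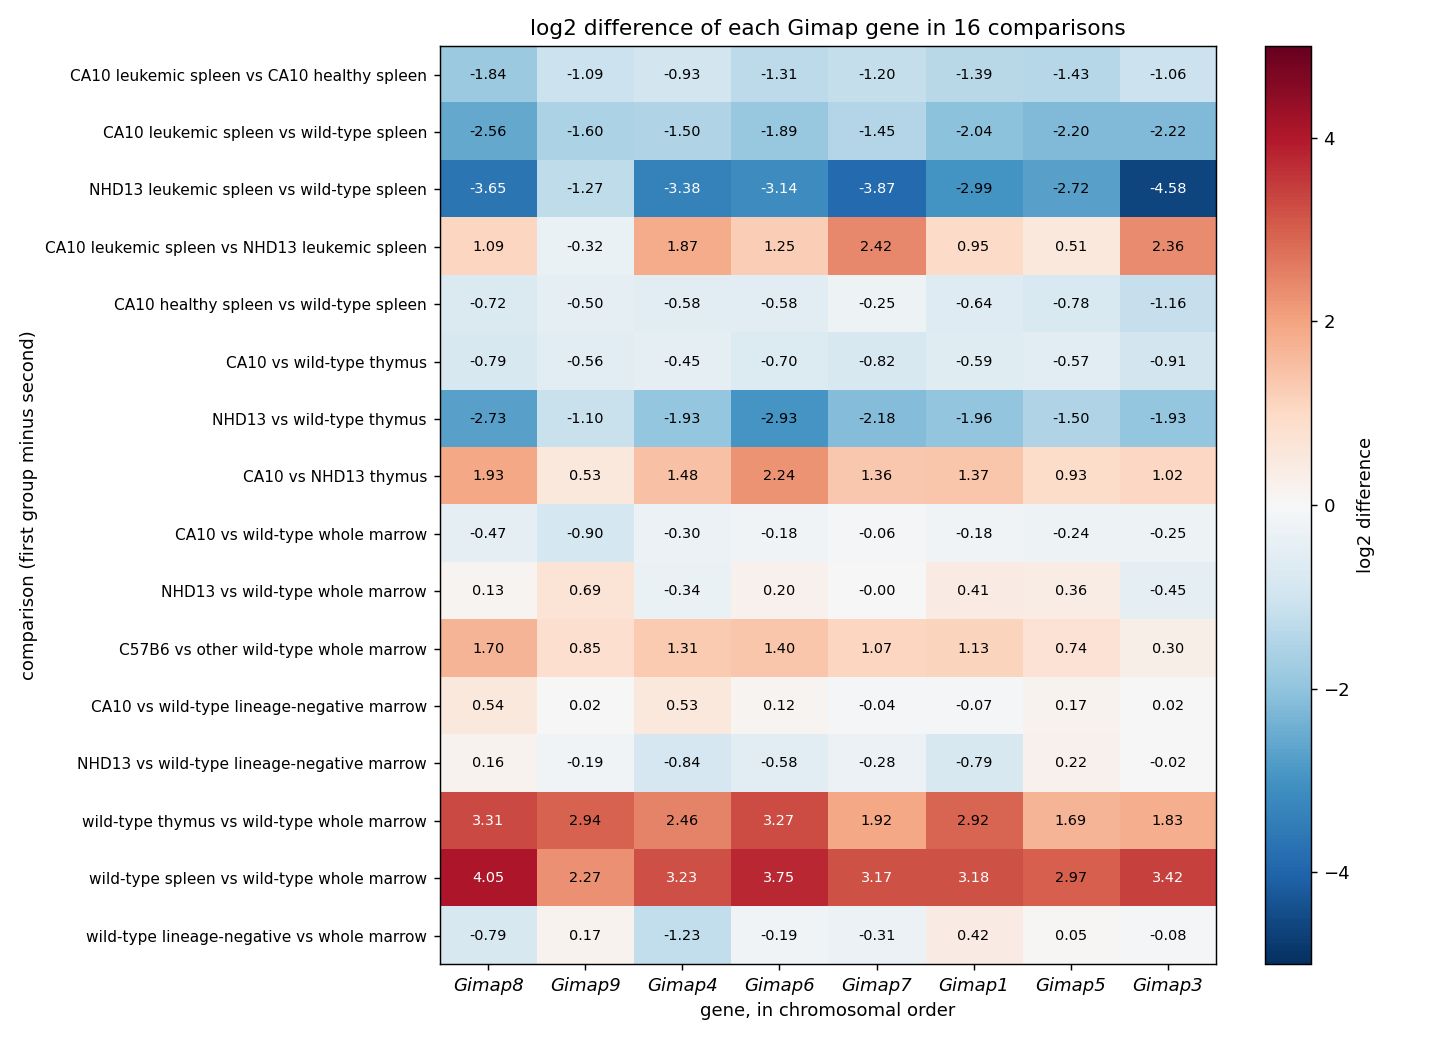
Log2 difference between group means (colour and printed value, first group minus second) for 16 comparisons (rows) and 8 Gimap genes (columns, in their order on the chromosome). The deepest negative values stand in the row of NHD13 leukemic against wild-type spleen, where Gimap3 is at -4.58 and Gimap9 at -1.27, and the rows of wild-type thymus and spleen against marrow are positive throughout.

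CA10 leukemic spleens were also set against spleens of CA10 mice without leukemia. All 6 genes had a lower mean in the leukemic spleens, with a median difference of -1.15 (all genes, 0.01), yet the groups overlapped for every gene and only Gimap8 was called, at -1.84 ± 0.44, where 1.83% of all genes were called lower. The smallest difference was that of Gimap4, -0.93 ± 0.46. The count was 0 without any 1 of 6 arrays, namely CA10 spleens 4 and 5 without leukemia and leukemic spleens 1, 2, 3 and 6. CA10 spleens without leukemia in turn had lower means than wild-type spleens for all 6 genes, from -1.16 for Gimap3 to -0.25 for Gimap7. None of the 6, and 0% of all genes, was called in that comparison by limma; 0 of the 6 and 2.53% of all genes had an unadjusted p below 0.05. The 2 CA10 spleens with the high granule gene means held the 2 lowest values of their group for all 6 genes. Their stem and progenitor gene means lay within the range of the CA10 leukemic spleens.

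The leukemias were also compared directly. Gimap3, Gimap4 and Gimap7 were called higher in CA10 than in NHD13 leukemic spleens, by 2.36 ± 0.48, 1.87 ± 0.44 and 2.42 ± 0.43, where 11.7% of all genes were called higher. Gimap3 and Gimap7 did not overlap between the leukemias, as was so for 5.72% of all genes. Gimap6 and Gimap8 had differences of 1.25 ± 0.47 and 1.09 ± 0.42 and were not called. Gimap9 had -0.32 ± 0.40, the only negative difference of the 6. Leaving out CA10 leukemic spleen 2, which had the lowest signal of its group for all 6 genes, made the count 5.

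Other lymphocyte genes moved in the same spleens. In NHD13 leukemic against wild-type spleens 12 of 14 tested T cell markers fell (median -2.15), as did all 13 B cell markers (median -5.06) and 8 of 10 genes of naive and recirculating lymphocytes (median -2.50). Cd79a, part of the B cell receptor, fell by 7.45 ± 1.00 (SE, limma adjusted p = 7.68e-05), and Cd3e, part of the T cell receptor, fell by 1.54 ± 0.34 (adjusted p = 0.00269). Cd2, a T cell adhesion receptor, fell by 3.66 ± 0.69 (adjusted p = 0.000896). The mean over the T cell markers was 6.30 ± 0.34 in NHD13 leukemic spleens and 8.47 ± 0.45 in wild-type spleens (SD, n = 6 and 2), and that of the B cell markers was 5.93 ± 0.43 in NHD13 leukemic and 10.90 ± 0.31 in wild-type spleens. The part of these cells in the Gimap differences was not tested.

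Genes of naive and recirculating lymphocytes, which home to and circulate through lymphoid tissue, included several past the threshold. In NHD13 leukemic spleens Bach2, a repressor that keeps lymphocytes resting, fell by 4.50 ± 0.65 (limma adjusted p = 0.000144), and Ccr7, a homing receptor, fell by 3.96 ± 0.64 (adjusted p = 0.000315). Il7r, the receptor of the survival cytokine IL-7, fell by 3.08 ± 0.61 (adjusted p = 0.00139), and Foxo1, a transcription factor of resting lymphocytes that activates Il7r, fell by 2.84 ± 0.47 (adjusted p = 0.000388). In the list of BCL2 family genes, which control cell death, 1 of 12 was called, Bcl2l11, which promotes death and fell by 2.18 ± 0.40 (adjusted p = 0.000735). Other GTPases, those induced by interferon, fell in 4 of 9 cases, and Irgm2 among them fell by 2.13 ± 0.45 (adjusted p = 0.00205). Of 9 NK and cytotoxic genes 5 had a lower mean with an unadjusted limma p below 0.05 and 0 a higher one. Such a p was reached by 42.5% of all genes in either direction. In the opposite direction 3 of 10 granule genes rose, where 19.1% of all genes were called higher, with the neutrophil protease Ctsg up by 5.08 ± 1.30 (adjusted p = 0.00703). The stem and progenitor gene Hoxa9 rose by 5.08 ± 0.71 (adjusted p = 0.000105).

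In CA10 leukemic against wild-type spleens fewer of these genes passed the threshold. Of 14 T cell markers 1 was called, Cd4, which fell by 1.52 ± 0.26 (limma adjusted p = 0.00637), with a median of -1.46 over the list, and 7 of 13 B cell markers fell (median -2.89). Foxo1 fell by 2.02 ± 0.47 (adjusted p = 0.0182) and S1pr1, the receptor that guides lymphocytes out of tissue, fell by 2.98 ± 0.81 (adjusted p = 0.0336), 2 of 4 called among 10 genes of naive and recirculating lymphocytes. Among BCL2 family genes Bcl2l11 fell and Bbc3, another promoter of death, rose, where 5.63% of all genes were called higher. None of the 9 interferon-induced GTPases was called by limma, and 1 had an unadjusted p below 0.05. Against CA10 spleens without leukemia, Foxo1 fell by 1.74 ± 0.35 (adjusted p = 0.0126), 1 of 3 called in its list, and 4 of 13 B cell markers fell (median -1.90). On the NK and cytotoxic list Klrk1 rose, by 1.94 ± 0.51 against wild-type spleens (adjusted p = 0.0299). Against CA10 spleens without leukemia it rose by 2.17 ± 0.38 (adjusted p = 0.00669). In each comparison 1 of the 9 genes had a higher mean with an unadjusted limma p below 0.05, and 0 a lower one. Such a p was reached by 24.6% and 21.6% of all genes in either direction.

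Between the leukemias, 6 of 14 T cell markers, 9 of 13 B cell markers and 4 of 10 genes of naive and recirculating lymphocytes were higher in CA10 than in NHD13 leukemic spleens. Ccr7 was higher by 2.62 ± 0.45 (limma adjusted p = 0.000588) and Il7r by 2.04 ± 0.43 (adjusted p = 0.00301). Of the interferon-induced GTPases 8 of 9 were higher, with Gbp2 by 2.54 ± 0.48 (adjusted p = 0.00124). Bcl2, which protects lymphocytes from death, was higher by 1.16 ± 0.41 (adjusted p = 0.0468). B cell marker means were 8.10 ± 1.11 in CA10 and 5.93 ± 0.43 in NHD13 leukemic spleens (SD, n = 6 each), and T cell marker means were 7.12 ± 0.45 in CA10 and 6.30 ± 0.34 in NHD13 leukemic spleens. Their part in the Gimap differences was not tested.

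**Figure D3:**
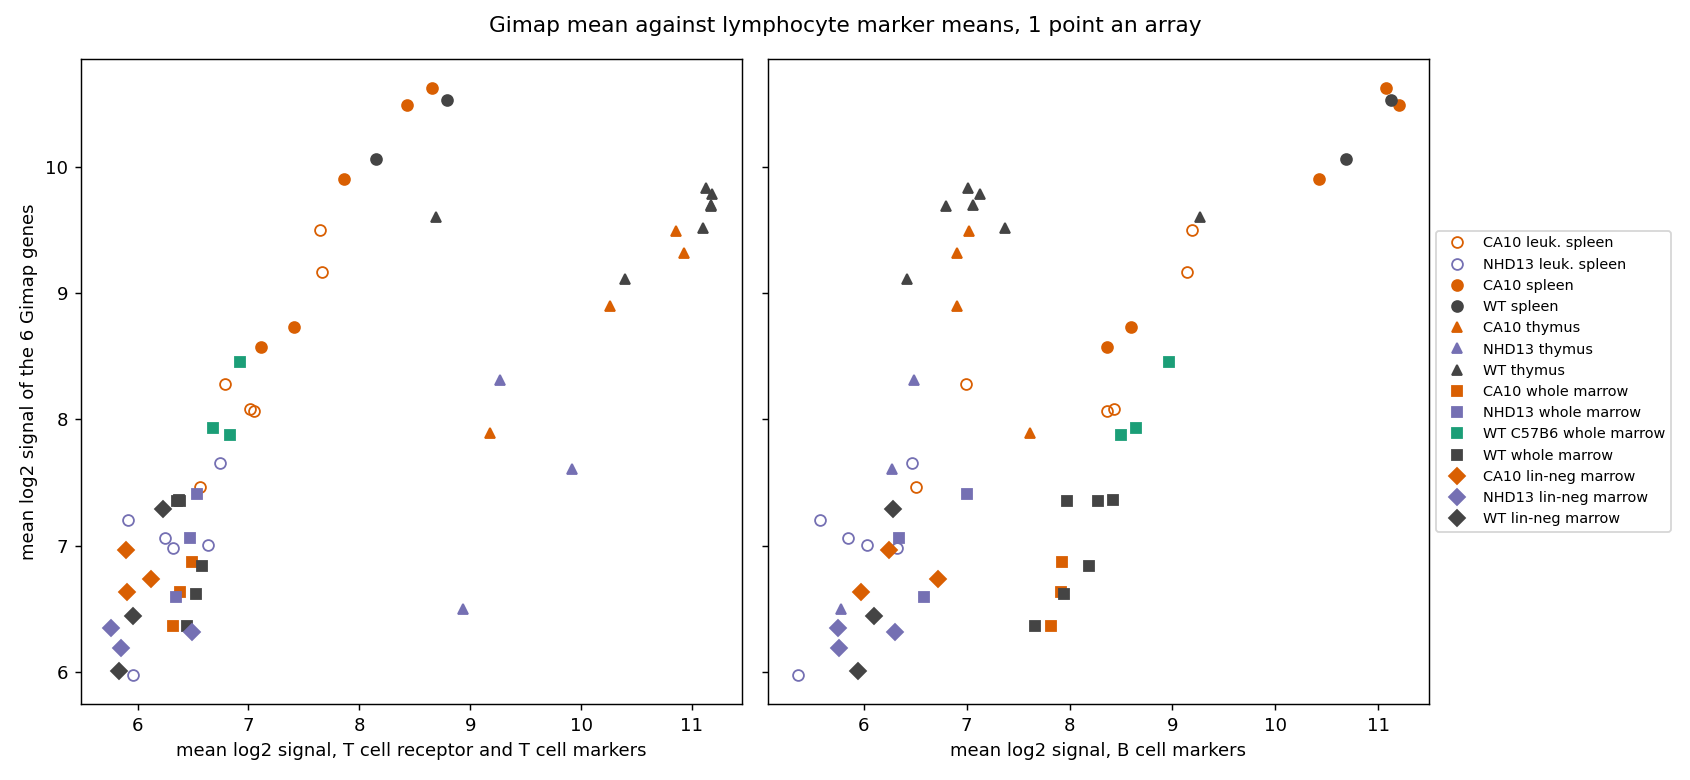
Mean log2 signal of the 6 Gimap genes (vertical axis) against the mean of the T cell markers (left) and of the B cell markers (right) in log2 signal, 1 point an array, coloured by group. Wild-type spleens are high in the Gimap mean at 10.30 with T cell markers at 8.47, while NHD13 thymuses have T cell markers at 9.38 and a Gimap mean of 7.47.

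The thymus, where T cells develop and where almost all cells are T lineage cells, gave the same direction for NHD13 mice without leukemia. All 6 genes were lower in NHD13 than in wild-type thymus, with a median difference of -2.06 (all genes, -0.003). All but Gimap9 were called, where 0.366% of all genes were called lower, and those 5 did not overlap, as was so for 2.68% of all genes. Gimap6 had 6.91, 7.60 and 5.50 in NHD13 thymus, against 9.05, 9.60 and 10.05 in wild-type thymus (lowest, median, highest of 7), a difference of -2.93 ± 0.39 or 7.63-fold. Gimap8 had 7.88, 8.57 and 6.51 in NHD13 thymus, against 9.98, 10.53 and 10.68 in wild-type thymus, a difference of -2.73 ± 0.43 or 6.62-fold. For both genes the gap between the groups was over 1 log2 unit.

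Gimap7 had 5.97, 7.01 and 4.59 in NHD13 thymus, against 7.50, 7.95 and 8.66 in wild-type thymus (lowest, median, highest, as for the genes that follow), a difference of -2.18 ± 0.46. It lay above the 40th percentile of the array on 2 of 3 NHD13 thymuses. Gimap3 had 7.61, 8.42 and 6.91 in NHD13 thymus, against 8.86, 9.53 and 10.36 in wild-type thymus, a difference of -1.93 ± 0.37. For Gimap4 the values were 9.25, 10.23 and 7.70 in NHD13 thymus, against 10.36, 11.11 and 11.35 in wild-type thymus, a difference of -1.93 ± 0.41. In each of these genes NHD13 thymus 3 was the lowest array. Gimap9 had 8.03, 8.04 and 7.76 in NHD13 thymus, against 7.72, 9.29 and 9.59 in wild-type thymus. Its difference was -1.10 ± 0.44, and it overlapped only through wild-type thymus 2, the array low in T cell, immature thymocyte and thymic epithelium genes. Without that array and CA10 thymus 3 all 6 genes were called, and the mean difference, -2.13, was that over all arrays.

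Some lymphocyte markers also had lower means in NHD13 thymus. An unadjusted p below 0.05 with a lower mean was reached by 7 of 14 T cell markers, 7 of 13 B cell markers and 3 of 10 genes of naive and recirculating lymphocytes, and with a higher mean by none, where 11.6% of all genes had such a p in either direction. After adjustment over all genes fewer remained. Cd2 fell by 3.26 ± 0.48 in NHD13 thymus (limma adjusted p = 0.00549), 1 of 14 called, with a median of -1.09 over the list, and the list's mean was 9.38 ± 0.50 in NHD13 and 10.69 ± 0.93 in wild-type thymus (SD, n = 3 and 7). Ccr7, on the list of naive and recirculating lymphocytes, fell by 2.66 ± 0.43 (adjusted p = 0.0104), 1 of 10 called. Cd3e (-0.13 ± 0.40), Il7r (0.30 ± 0.41), Foxo1 (-0.28 ± 0.32) and Bcl2 (-0.62 ± 0.53) were not called. None of the 12 BCL2 family genes and none of the 11 immature thymocyte genes was called by limma, and 2 of each list had an unadjusted p below 0.05. Of B cell markers 1 of 13, Ms4a1, was called lower. The part of cell mixture in the Gimap differences was not tested. The count of Gimap genes called was 2 without NHD13 thymus 1 or 3 or without wild-type thymus 1, 4, 5 or 7, and 3 without wild-type thymus 3. With the Gapdh 3′ minus 5′ measure as a covariate it was 1.

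CA10 thymus lay between. Its 6 differences from wild-type thymus ran from -0.91 ± 0.34 (Gimap3) to -0.45 ± 0.38 (Gimap4), and none was called by limma, where 0% of all genes were. An unadjusted p below 0.05 was reached by 1 of the 6, Gimap3, and by 3.4% of all genes. Gimap6 had 8.70, 9.46, 8.10 and 9.36 in CA10 thymus, against 6.91, 7.60 and 5.50 in NHD13 thymus, with no overlap, as was so for 5.83% of all genes, and a difference of 2.24 ± 0.44. No gene of the 6 was called between these thymuses either, where 0.0261% of all genes were called higher, and 5 had an unadjusted p below 0.05, against 9.95% of all genes. Without wild-type thymus 2 and CA10 thymus 3 the number called was 2, as it was without CA10 thymus 3 alone, and without NHD13 thymus 2 it was 1. CA10 thymus 3 had the lowest signal of its group for all 6 genes, for example 8.24 for Gimap8, against 10.04, 10.21 and 9.87 on the other arrays.

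Whole marrow of transgenic mice without leukemia showed small differences. In CA10 marrow they ranged from -0.90 ± 0.40 (Gimap9) to -0.06 (Gimap7), and in NHD13 marrow from -0.45 ± 0.21 (Gimap3) to 0.69 ± 0.40 (Gimap9), always against the 6 wild-type whole marrows not labelled C57B6. None was called by limma in either, where 0% and 1.18% of all genes were called, and 1 gene in each had an unadjusted p below 0.05, as did 15.3% and 16.6% of all genes. Gimap3 had 7.23, 7.38 and 7.29 in NHD13 whole marrow, against 7.38, 7.86 and 7.98 in wild-type whole marrow (lowest, median, highest), and the groups did not overlap, although their nearest values round alike, as was so toward lower signals for 2.38% of all genes. Gimap9 had 4.99, 5.46 and 5.15 in CA10 marrow and 6.78, 7.41 and 6.17 in NHD13 marrow, against 5.23, 6.13 and 6.93 in wild-type marrow. The wild-type values fell into 6.67, 6.91 and 6.93 on arrays 1 to 3 and 5.23, 5.60 and 5.26 on arrays 4 to 6, which belong to the array set with the low upper quartile. Within that set the mean difference of the 6 genes between CA10 and wild-type marrow was 0.01, against -0.36 over all arrays. Within the other arrays that between NHD13 and wild-type marrow was -0.34, against 0.04 over all arrays. In the same NHD13 marrows 9 of 13 B cell markers fell (median -1.26), where 0.575% of all genes were called lower, with a marker mean of 6.65 ± 0.33, against 8.08 ± 0.27 in wild-type marrow (SD, n = 3 and 6).

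C57B6 marrow had the higher Gimap signals of the wild-type marrows. Gimap4, Gimap6, Gimap7 and Gimap8 were called higher in C57B6 marrow, where 14% of all genes were called higher, and these 4 did not overlap, as was so for 14.2% of all genes. Gimap8 had 8.64, 8.48 and 9.19 in C57B6 marrow, against 5.80, 7.15 and 7.91 in the other wild-type marrows (lowest, median, highest), a difference of 1.70 ± 0.39. Gimap4 had 9.53, 9.84 and 10.15 in C57B6 marrow, against 8.14, 8.57 and 8.69 in the others, a difference of 1.31 ± 0.20. Its second probe set gave only 0.52, and there the groups overlapped, with 8.02 the lowest in C57B6 marrow and 8.56 the highest in the others. Gimap6 and Gimap7 differed by 1.40 ± 0.31 and 1.07 ± 0.25. Gimap3 (0.30 ± 0.21) and Gimap9 (0.85 ± 0.40) were not called. Against wild-type marrows 1 to 3 alone, the arrays of the same set, the mean difference of the 6 was 0.73, against 1.10 over all arrays, and 2 were called. In the comparison over all these marrows 7 of 13 B cell markers and 4 of 14 T cell markers rose in C57B6 marrow, and 1 of each list fell, where 5.2% of all genes were called lower. The naive and recirculating list had 3 genes called higher, among them Foxo1 (0.60 ± 0.19, limma adjusted p = 0.0352), and Bcl2 rose by 1.12 ± 0.31 (limma adjusted p = 0.0175).

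Lineage-negative marrow, which holds the progenitors, showed low signals in all genotypes. Gimap4 had 7.74, 8.39 and 7.36 in CA10, 6.86, 7.05 and 5.47 in NHD13 and 6.72, 6.34 and 8.84 in wild-type lineage-negative marrow, so that all 3 groups overlapped. Its differences from wild-type were 0.53 in CA10 and -0.84 in NHD13, the widest of the 6 for NHD13. None of the 6 was called by limma in CA10 or NHD13 lineage-negative marrow, where 0% and 0.0588% of all genes were called, and none had an unadjusted p below 0.05, against 0.464% and 3.31% of all genes. With the replicate number as a block, as the correlation of same-numbered lineage-negative arrays called for, both counts were 0 as well. Array 3 of each lineage-negative group belongs to the set with the low upper quartile, and arrays 1 and 2 do not. A shared array set and a shared mouse, litter or day therefore cannot be told apart in that correlation.

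The difference between Gimap9 and the other genes was measured on each array as its signal minus the mean of the other 5. That value was 0.13 ± 1.21 in NHD13 leukemic spleens (SD, n = 6) and -1.99 ± 0.38 in CA10 leukemic spleens (n = 6), against -2.32 ± 0.07 in wild-type spleens (n = 2). In thymus it was 0.56 ± 0.93 in NHD13 mice (n = 3), against -0.68 ± 0.73 in wild-type mice (n = 7). The thymus groups overlapped, with -0.33 to 1.52 in NHD13 mice and -2.26 (wild-type thymus 2) to -0.12 in wild-type mice. Over the marrow groups the mean value ran from -1.71 in CA10 whole marrow to -0.25 in NHD13 lineage-negative marrow, with -0.37 in wild-type lineage-negative marrow. A value above that of wild-type spleen was therefore not particular to NHD13 tissue. Only shifts between groups can be read from this value, since the probe sets differ. In log2 terms Gimap9 was lower by 2.45 less than the others in NHD13 leukemic spleens and by 1.24 less in NHD13 thymus, against 0.33 less in CA10 leukemic spleens, each relative to wild-type tissue. Gimap9 was singled out after its values were seen, and the shift has no test. Its single probe set left no second measurement of the gene.

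**Figure D4:**
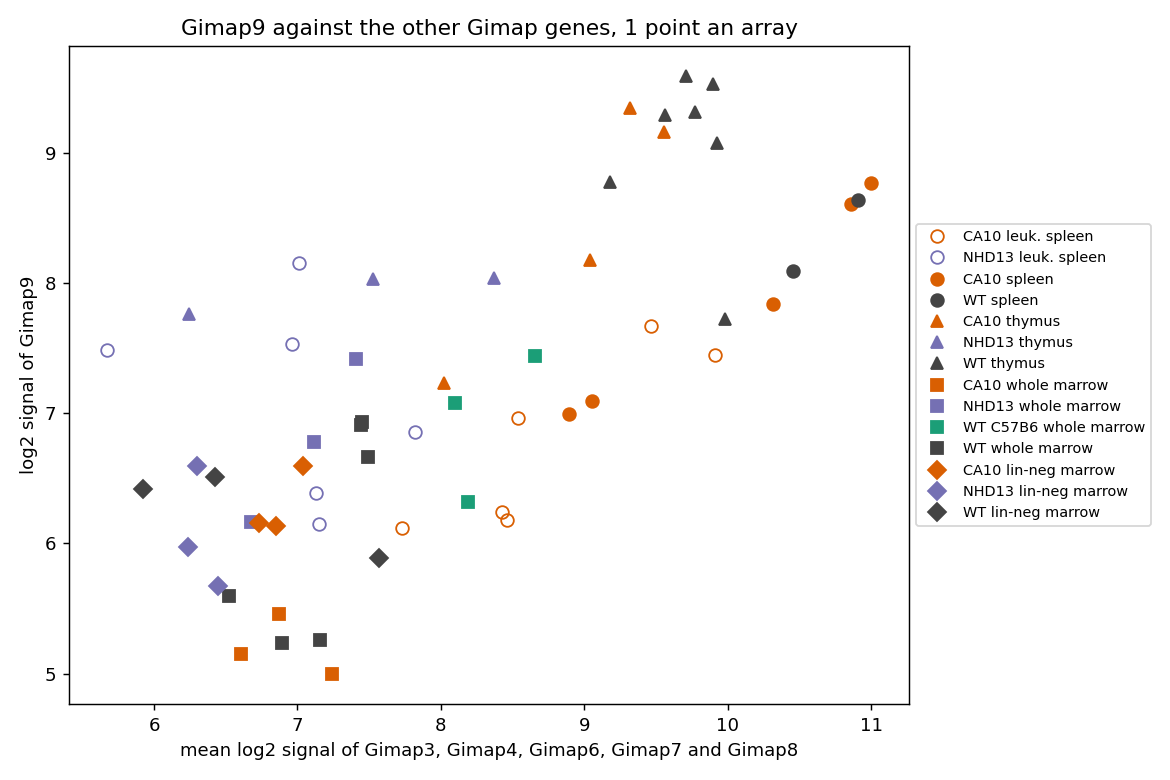
Log2 signal of Gimap9 (vertical axis) against the mean log2 signal of the other 5 Gimap genes (horizontal axis), 1 point an array, coloured by group. NHD13 leukemic spleens and NHD13 thymuses lie to the left of the other spleens and thymuses at like Gimap9 signals.

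Gimap4, Gimap6 and Gimap7 each had a second single-gene probe set. In NHD13 leukemic against wild-type spleens the representative and second probe sets gave -3.38 and -3.47 for Gimap4, -3.14 and -2.65 for Gimap6, and -3.87 and -4.01 for Gimap7. In NHD13 against wild-type thymus they gave -1.93 and -1.56 for Gimap4, -2.93 and -2.78 for Gimap6, and -2.18 and -1.42 for Gimap7. The probe sets of a gene had the same direction in both comparisons, but the second ones of Gimap6 and Gimap7 were dim in NHD13 leukemic spleens, and that of Gimap6 in NHD13 thymus too, so their sizes there are uncertain. That of Gimap7 exceeded the 40th percentile on 1 of 6 NHD13 leukemic spleens (mean 4.53), and that of Gimap6 on 3 of 6 (mean 4.72) and on 0 of 3 NHD13 thymuses (mean 4.03). In wild-type spleen and thymus both lay above it on every array. The second probe set of Gimap4 lay above it on all arrays of these groups. The probe sets of Gimap6 gave 1.25 and 0.15 in CA10 against NHD13 leukemic spleens, 3.27 and 2.06 in wild-type thymus against whole marrow, and 3.75 and 2.61 in wild-type spleen against whole marrow. In NHD13 against wild-type lineage-negative marrow their signs were opposite, -0.58 and 0.34. Those of Gimap7 gave -1.45 and -2.45 in CA10 leukemic against wild-type spleens, and 1.07 and 0.07 in C57B6 against other wild-type marrow. In that marrow comparison those of Gimap4 gave 1.31 and 0.52.

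Gimap1 and Gimap5, not among the 6, also had single-gene probe sets. In NHD13 leukemic against wild-type spleens Gimap1 fell by 2.99 ± 0.70 (limma adjusted p = 0.00402) and Gimap5 fell by 2.72 ± 0.55 (adjusted p = 0.00152). In CA10 leukemic spleens Gimap5 fell by 2.20 ± 0.55 against wild-type spleens (adjusted p = 0.0236) and fell by 1.43 ± 0.41 against CA10 spleens without leukemia (adjusted p = 0.0468), while Gimap1 had -2.04 and -1.39 and was not called. In NHD13 against wild-type thymus Gimap5 fell by 1.50 ± 0.29 (adjusted p = 0.0288), and Gimap1 had -1.96 (adjusted p = 0.136). Neither was called between the leukemias.

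Of the 4 nearest protein-coding genes on each side 6 were measured: Rarres2, Repin1 and Zfp775 before Gimap8, and Tmem176b, Tmem176a and Aoc1 after Gimap3. Their median difference was -0.42 in NHD13 leukemic against wild-type spleens, -0.05 in NHD13 against wild-type thymus and 0.10 in CA10 leukemic against wild-type spleens. Rarres2, which encodes the chemoattractant chemerin, fell by 1.46 ± 0.30 in NHD13 leukemic spleens (limma adjusted p = 0.00166) and fell by 1.06 ± 0.30 in CA10 leukemic spleens (adjusted p = 0.0392), and was the only neighbour called in those comparisons. Repin1 and Zfp775 had 0.43 and 0.42 in NHD13 leukemic spleens, next to -3.65 for Gimap8, and on the other side Tmem176b had -1.27 ± 0.56 (adjusted p = 0.0919), next to -4.58 for Gimap3. Between CA10 and NHD13 leukemic spleens Tmem176b was called higher, by 1.38 ± 0.40 (limma adjusted p = 0.0174). None of the 6 neighbours was called in NHD13 thymus by limma, and none had an unadjusted p below 0.05 there. Between wild-type tissues several neighbours were higher, as the Gimap genes were. In wild-type thymus against whole marrow 5 of the 6 were called higher (median 0.97), Rarres2 by 2.02 ± 0.44 (limma adjusted p = 0.000186). In wild-type spleen against whole marrow 3 were called higher (median 0.96), Rarres2 by 2.68 ± 0.64 (adjusted p = 0.00307) and Tmem176a by 2.15 ± 0.49 (adjusted p = 0.00192).

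**Figure D5:**
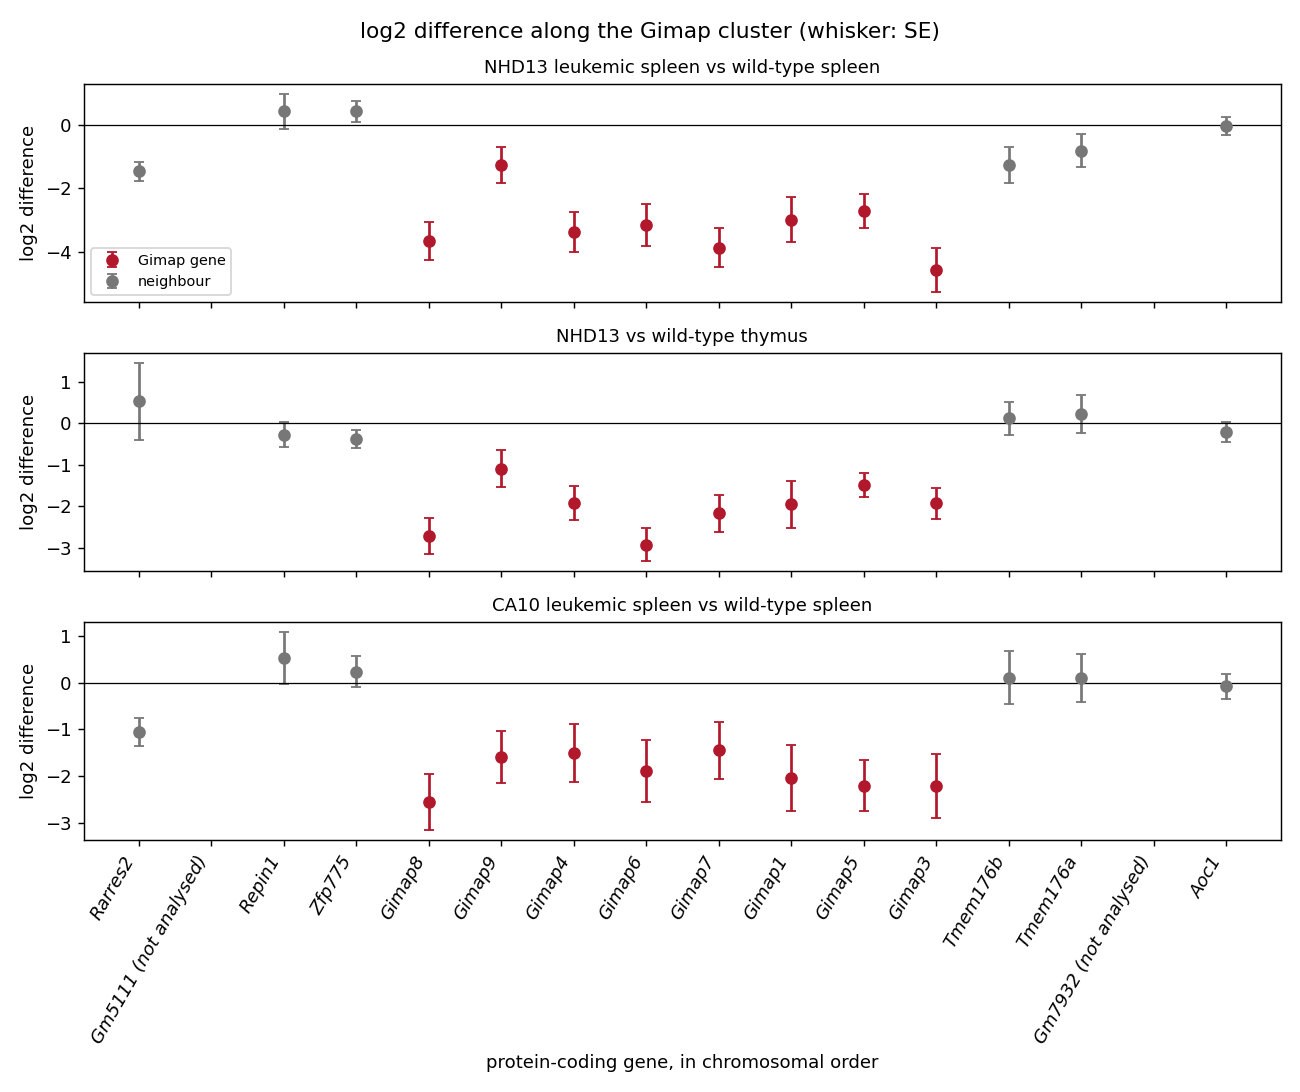
Log2 difference with its SE (vertical axis) for 14 genes of the cluster and its surroundings in their order on the chromosome (horizontal axis, not to scale), in 3 comparisons. The 8 Gimap genes lie below 0 in all 3 comparisons, the lowest being Gimap3 at -4.58 in NHD13 leukemic against wild-type spleen, and the lowest neighbour is Rarres2 at -1.46 in the same comparison.

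Over the means of the 14 groups, single members followed the mean of the 6 with a Pearson r of 0.993 for Gimap8, 0.991 for Gimap6, 0.970 for Gimap4, 0.953 for Gimap7, 0.917 for Gimap3 and 0.829 for Gimap9. With the other members singly, Gimap9 had an r from 0.637 (Gimap3) to 0.845 (Gimap8). Each of the 6 is itself part of that mean, so its r is not on a par with those of the genes that follow. Among all other genes the 8 most alike to that mean were 4930431P19Rik (0.972), Ly9 (0.963), Ikzf3 (0.962), Ccr7 (0.962), Itpr3 (0.961), Zbtb4 (0.956), Mycbp2 (0.956) and Lax1 (0.955), with Gimap1 and Gimap5 at 0.975 and 0.941. Ly9 and Lax1 are membrane proteins of lymphocytes, Ikzf3 (Aiolos) is a lymphocyte transcription factor, and Itpr3 is a calcium channel of the endoplasmic reticulum. Foxo1 had 0.901, Bcl2 0.824, Il7r 0.774 and Cd3e 0.524. The median over the naive and recirculating lymphocyte genes was 0.75, over the T cell markers 0.67 and over the B cell markers 0.66. The groups share tissues, cell mixtures and array sets, so these values describe likeness over 14 points and have no test.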

How the data were processed

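RNA from spleen, thymus and marrow was extracted with Trizol, and 100 ng served for biotin labelling, as the labels' protocols state. The deposited values are log2 signals on which the authors ran RMA (no version given), per the submitters' processing notes. The table held 44943 probe sets on 57 arrays, with array medians of 5.44 to 5.85. Of these, 34842 named 1 gene in the supplied probe annotation, 931 named several and 9106 none, and 64 were controls. Each of 18165 genes was represented by its single-gene probe set with the highest mean, and genes above the 40th percentile of an array on at least 3 arrays were tested (15310).

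For each tissue, 1 limma model (limma 3.58.1, R 4.3.3, eBayes defaults) held the group means. The comparisons between wild-type tissues came from 1 such model of all 57 arrays. P-values were adjusted by Benjamini-Hochberg across the tested genes (threshold 0.05), and the models were tested on simulated data. Lists were T cell, B cell, naive and recirculating lymphocyte, NK, BCL2 family, interferon-induced GTPase, immature thymocyte, granule, stem and progenitor, endothelial and other marker genes. The members and lists were chosen with earlier results of these data known. Besides the 6 genes, the text names Gimap1, Gimap5, Cd3e, Il7r, Bcl2 and Foxo1, up to 3 called genes a list and comparison with the largest change, the 8 genes most alike over group means, and the 4 nearest genes on each side of the cluster. The labels do not tie equal replicate numbers to a mouse, litter or day. Numbers were taken to pair arrays where at least 3 pairs were had and the deviations of every pair correlated above 0.1. This held in the comparisons of CA10 (0.20 to 0.70) and NHD13 (0.21 to 0.74) with wild-type lineage-negative marrow. It did not in NHD13 against wild-type thymus (0.04 to 0.37, 3 pairs), nor against wild-type spleen in CA10 (0.12 to 0.21) and NHD13 leukemic spleens (0.03 to 0.20), with 2 pairs each. Alternatives were other filters, the mean of all probe sets, quantile normalization, models of fewer or all arrays, the replicate block, a Gapdh covariate, array sets and each array left out.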

Additional observations from a re-analysis of the deposited data

Results flagged for a closer look

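A single array lay far below the rest of its group in 3 of the 36 sets of values examined (a gene in a group of 4 to 10 arrays), where chance alone gives about 1 in 20. NHD13 leukemic spleen 3 had the lowest Gimap6 signal of its group, 5.42, with the nearest array at 6.98, and the lowest Gimap8 signal, 5.94, with the nearest at 7.46. It was also the array with the low granule gene mean. Wild-type whole marrow 5 had a Gimap4 signal of 8.14, with the nearest array at 8.54.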

How the results depend on the processing

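Of 1800 values of single Gimap genes under other settings, 1704 kept their side of the threshold, 50 lost the call, 46 gained it and 0 called differences changed sign. Differences not called under either setting were counted among the 1704 even where their sign changed. The number of the 6 genes called in CA10 leukemic against wild-type spleens, 1, was 2 with the filter at the 60th percentile or with quantile normalization, 3 with the mean of all probe sets, with the compared groups alone or with a model of all 57 arrays, and 4 with the replicate block or the Gapdh covariate. Between CA10 and NHD13 leukemic spleens, 3 became 5 in the model of all arrays and with the replicate block. In NHD13 against wild-type thymus, 5 became 3 with no filter or with the mean of all probe sets, 1 with the Gapdh covariate and 0 with the replicate block. Between CA10 and NHD13 thymus, 0 became 1 with quantile normalization and 2 in the model of all arrays. The block gave 2 in place of 0 in CA10 against wild-type whole marrow, and the model of all arrays 2 in place of 4 for C57B6 marrow, as did the arrays of the set with the higher upper quartile. In wild-type lineage-negative against whole marrow, 0 became 1 with the filter at the 60th percentile, the compared groups alone or the Gapdh covariate, and 2 within that array set, where the mean difference was -1.13. Apart from those named, the block moved no count by over 1.5 times, and outside lineage-negative marrow the correlations did not meet the rule for pairing. The causes were not tested. After the data were seen, 2 alternatives were added. In the first, the difference between C57B6 and other wild-type marrow was subtracted from the signals of the NHD13 leukemic spleens. This treats NHD13 mice alone as C57B6, which the labels do not say, and carries a marrow difference over to spleen. The mean difference of NHD13 leukemic from wild-type spleens was then -4.42, against -3.32. That of CA10 from NHD13 leukemic spleens was 2.55, against 1.44, with 5 genes called. Without wild-type thymus 2 and CA10 thymus 3, 2 genes were called between CA10 and NHD13 thymus.

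Leaving out 1 array at a time, the mean difference of the 6 genes and their count called ranged as follows. Against CA10 spleens without leukemia, CA10 leukemic spleens gave -1.51 to -0.998 (0 to 1 called), and against wild-type spleens -2.10 to -1.64 (0 to 3). NHD13 leukemic spleens against wild-type gave -3.55 to -3.08 (5 to 6), CA10 against NHD13 leukemic spleens 1.23 to 1.64 (3 to 5), and CA10 spleens without leukemia against wild-type -0.87 to -0.36 (0). In thymus the ranges were -0.90 to -0.37 (0) for CA10 and -2.55 to -1.64 (2 to 5) for NHD13 against wild-type, and 0.94 to 1.85 (0 to 2) for CA10 against NHD13. In whole marrow they were -0.48 to -0.23 (0) for CA10, -0.16 to 0.25 (0) for NHD13 and 0.92 to 1.21 (3 to 4) for C57B6. Lineage-negative marrow gave -0.09 to 0.55 (0) for CA10 and -0.58 to 0.06 (0) for NHD13. Against wild-type whole marrow, wild-type thymus gave 2.50 to 2.70 (6), spleen 3.08 to 3.55 (5 to 6) and lineage-negative marrow -0.76 to -0.12 (0 to 1). Leaving out 1 wild-type spleen leaves a group of 1, assumed to vary like the other spleen groups. Signals near the low end of the arrays, such as those of Gimap7 and Gimap9, limit what marrow can show for these genes.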
